A study of Mus musculus with 2 samples.

Results

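The genes described here encode the mitochondrial carriers of the SLC25 family and a few proteins grouped with them, measured in regenerating mouse liver. They were taken by name: every probe set whose only gene symbol in the array annotation begins with Slc25a, Mtch or Mpc and a digit, or is Ucp with a single digit. This gave 49 genes of the 18193 named on the array, with 105 probe sets, namely 44 Slc25a genes, 2 Ucp genes (Ucp1 and Ucp3), 2 Mtch genes and Mpc1. Ucp2 and Mpc2 were not analysed here. The rule uses names and no measured value. Whole liver was taken from BALB/c nude mice, an athymic strain that lacks a normal set of T cells, and 70% of the liver had been removed by surgery. The control group was liver labelled day 0, and the other group was liver collected on day 3 after the operation. Each group held 1 array, so no value has a replicate and no test between the days was possible. The labels do not say whether an array held RNA of 1 animal or of a pool, and time, surgery and animal cannot be told apart.

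The inner mitochondrial membrane is impermeable to most metabolites, and SLC25 carriers move nucleotides, phosphate, carboxylic acids, amino acids, cofactors and metal ions across it, usually by exchange. The proteins are built from repeated units that each span the membrane as a helix pair. In hepatocytes they connect the cytosol to the urea cycle, gluconeogenesis, fatty acid oxidation, lipid synthesis and ATP export. Mtch1 and Mtch2 are relatives in the outer membrane, and Mpc1 is a subunit of the mitochondrial pyruvate carrier, which belongs to a different protein family.

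A signal is the MAS5 intensity of a probe set on a linear scale. The larger median of both arrays, 68.3, served as a floor to which weaker signals were raised, and a ratio is day 3 over day 0. Where a gene had several probe sets, the brightest over both arrays on the log2 scale, called the main probe set, stands for it. Signals of different genes come from different probes and are not compared with each other. Of the 49 genes, 42 had a probe set above the floor on at least 1 array and 39 had a main probe set above it on both. The other 7 lay under the floor on both arrays. They were Slc25a2, the second ornithine carrier, with signals of 39.6 at day 0 and 44.2 at day 3, Slc25a18, a glutamate carrier, Slc25a31, the ADP/ATP carrier of testis, Slc25a35, Slc25a41, Slc25a54 and Ucp1, the uncoupling protein of brown fat, with signals of 5.57 and 3.52. Their signals all lay between 0.971 and 57.8. The fat markers Adipoq, Cidea and Lep also lay under the floor on both arrays.

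The liver label was borne out by its markers, since all 6 hepatocyte genes listed, among them Alb with signals of 59840 and 46192, were above the floor. Their log2 ratios ran from −0.92 to −0.35 as deposited, with a median of −0.50, and 2 of the 6 turned above 0 after quantile normalisation and 1 after loess. The 7 macrophage markers had a median of 1.59, with 5 at least 2-fold higher, and their summed signal was 7195 at day 0 and 20423 at day 3. The 5 stellate cell markers had a median of 1.45 (3 at least 2-fold higher), with summed signals of 4212 and 12022, and the 4 cholangiocyte markers a median of 1.55 (3 at least 2-fold higher), with summed signals of 275 and 1042. None of the markers in these 3 lists had a negative ratio under any scaling tried. The 5 endothelial markers were all under 2-fold (median 0.37). All 4 proliferation markers were at least 2-fold higher (median 5.43). In whole tissue, fewer cells of a type and less RNA per cell cannot be told apart, and the part of cell composition in the ratios below was not tested. Poly-A spikes are RNAs added before labelling. Their median log2 ratio was −1.20 over 8 probe sets at the 5' end and −0.12 over 8 at the 3' end, and its part in the members' ratios was not tested.

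Promoter sequence was available in the RefSeq table of GRCm38.p6 for 35 of the 42 analysed genes, and for all 11 genes that differed by at least 2-fold. A window runs from 250 bases before to 50 bases after an annotated start. The windows of 6 genes are shown because they belong to members that differed by at least 2-fold in each direction or to carriers whose results are set out below. Of the higher genes, Slc25a4 (chr8:46211013-46211312, minus strand), Slc25a40 (chr5:8422588-8422887, plus strand) and Slc25a36 (chr9:97110992-97111291, minus strand) are shown. Of the lower genes, Slc25a47 (chr12:108850879-108851178, plus strand), Slc25a34 (chr4:141623785-141624084, minus strand) and Slc25a1 (chr16:17928170-17928469, minus strand) are shown, the last being 1.85-fold lower. Each is written 5′ to 3′ on the strand of its gene, and capitals mark the letters of any motif searched.
Slc25a4: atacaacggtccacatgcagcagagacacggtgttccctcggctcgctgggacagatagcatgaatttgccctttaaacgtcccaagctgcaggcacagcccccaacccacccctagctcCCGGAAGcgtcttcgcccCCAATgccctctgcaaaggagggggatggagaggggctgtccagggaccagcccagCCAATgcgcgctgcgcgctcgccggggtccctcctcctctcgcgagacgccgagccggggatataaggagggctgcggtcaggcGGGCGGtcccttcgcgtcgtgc
Slc25a40: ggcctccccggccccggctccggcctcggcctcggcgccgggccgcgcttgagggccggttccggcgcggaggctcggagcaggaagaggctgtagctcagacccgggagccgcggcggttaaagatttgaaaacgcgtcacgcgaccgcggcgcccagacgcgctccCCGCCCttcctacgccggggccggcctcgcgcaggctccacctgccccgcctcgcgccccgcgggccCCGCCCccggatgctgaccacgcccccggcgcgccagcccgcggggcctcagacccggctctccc
Slc25a36: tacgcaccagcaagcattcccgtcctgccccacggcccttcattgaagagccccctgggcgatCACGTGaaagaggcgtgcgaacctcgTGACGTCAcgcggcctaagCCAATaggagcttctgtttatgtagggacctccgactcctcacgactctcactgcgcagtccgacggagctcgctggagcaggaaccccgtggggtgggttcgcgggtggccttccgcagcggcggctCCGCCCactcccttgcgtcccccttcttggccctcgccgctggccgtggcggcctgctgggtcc
Slc25a47: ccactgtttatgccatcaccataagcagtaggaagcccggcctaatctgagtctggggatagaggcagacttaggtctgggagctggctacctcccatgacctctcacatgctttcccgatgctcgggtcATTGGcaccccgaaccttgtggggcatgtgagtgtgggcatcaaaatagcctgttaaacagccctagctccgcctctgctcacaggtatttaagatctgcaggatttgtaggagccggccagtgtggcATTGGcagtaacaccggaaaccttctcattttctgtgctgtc
Slc25a34: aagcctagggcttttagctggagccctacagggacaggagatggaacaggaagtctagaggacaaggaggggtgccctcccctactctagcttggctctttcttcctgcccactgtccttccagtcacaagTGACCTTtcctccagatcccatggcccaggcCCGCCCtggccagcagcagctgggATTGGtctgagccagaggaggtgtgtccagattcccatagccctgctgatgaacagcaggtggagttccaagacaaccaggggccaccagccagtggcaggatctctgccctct
Slc25a1: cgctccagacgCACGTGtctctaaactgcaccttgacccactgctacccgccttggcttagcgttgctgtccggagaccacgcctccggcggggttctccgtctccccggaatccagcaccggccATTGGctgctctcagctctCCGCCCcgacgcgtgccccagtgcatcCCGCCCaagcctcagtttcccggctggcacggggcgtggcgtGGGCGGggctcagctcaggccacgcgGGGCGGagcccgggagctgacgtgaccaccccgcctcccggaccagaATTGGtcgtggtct

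The motifs were searched on both strands: CCAAT (the CCAAT box), GGGCGG (the GC box), CACGTG (the E-box of MYC and USF factors), TATAAA (the TATA box), CCGGAAG (the ETS core), AAGGTCA (the half-site of estrogen-related receptors), TTTGGCGC or TTTCCCGC (E2F), TCACNCCAC (the core of the sterol response element) and TGACGTCA (the cyclic AMP response element). Overlapping matches were all kept. The 35 genes had 46 windows, since some have several annotated starts. Windows of the same gene can overlap, and each was counted. The same CACGTG of Slc25a14 thus lies in 2 of its windows, from bases −54 and −184. GGGCGG stood in 41 of the 46 windows (89.1%), against 59.7% of the 13011 windows of all analysed genes and 35.7% of all 32851 windows in the table. TATAAA stood in none of the 46, against 8.0% of windows of analysed genes and 13.6% of all windows. The window of Slc25a47 was among the few members' windows without GGGCGG: it held only CCAAT, as ATTGG on the printed strand, from bases −120 and 9 (the start is base 1, with no base 0). CACGTG stood in 15.2% of members' windows, those of 6 genes (Slc25a1, Slc25a13, Slc25a14, Slc25a15, Slc25a33 and Slc25a36), against 9.73% for analysed genes and 7.15% for all. CCAAT stood in 47.8% (37.2% and 37.4%) and CCGGAAG in 17.4% (16.1% and 8.86%).

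AAGGTCA was found for Slc25a34 and Mtch2, in 4.35% of members' windows against 3.44% of those of analysed genes and 4.72% of all. TGACGTCA was found for Slc25a36 and Slc25a25, in 4.35% against 2.82% and 1.79%. TCACNCCAC was found for Mtch2 alone, in 2.17% against 1.21% and 1.24%. E2F letters were in none of the 46 windows, against 2.85% and 1.56%. GC content had a median of 60.7% in members' windows and 60.3% in those of analysed genes, and it ran from 48.3% to 79.0% among the higher members and from 53.3% to 66.7% among the lower ones. Of the shown windows, that of Slc25a40 had 79.0% GC and 47 CG dinucleotides, and that of Slc25a34 had 59.0% GC and 1 CG dinucleotide. A match is a match of letters, not a measured binding site.

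Of the 42 analysed carrier genes, 6 were at least 2-fold higher at day 3 and 5 were at least 2-fold lower, while 31 differed by less. Over all 12634 analysed genes, 12.9% were at least 2-fold higher and 5.62% at least 2-fold lower. At this threshold the members' share of 14.3% higher was close to that background, and their share of 11.9% lower stood above it as deposited. At 1.5-fold, 6 of the 42 members were higher, against 24.0% of all genes, and 12 were lower, against 14.2%. The size of the gap in the lower share at 2-fold varied with the setting. The lower share was 4.88% against 3.04% of all genes with spike scaling and 11.9% against 7.33% with quantile normalisation. It was nearer the background with the floor at the 75th percentile (6.25% against 5.28%), by the mean over probe sets (7.14% against 5.18%) and without a floor (9.52% against 8.07%). The median log2 ratio of the 42 genes was −0.19 (−0.25 for the 39 above the floor on both arrays), against 0.082 for all genes, and 30 of the 42 (71.4%) were below 0 as deposited, against 44.9% of all genes, but 17 of 41 with spike scaling. With the arrays scaled to the hybridisation spikes, the all-gene median moved from 0.082 to 0.37 and the members' median turned to 0.047. The members' median minus the all-gene median was −0.32 with spike scaling, −0.27 as deposited, −0.15 with loess and −0.11 with quantile normalisation. Under spike scaling 6 members were higher and 2 lower by at least 2-fold, so that 75% of the members past 2-fold were higher, against 54.5% as deposited. Over all genes the share was 86.7% with spike scaling, 69.6% as deposited and 58.2% with quantile normalisation.

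Carrier genes were mostly bright on these arrays, with 24 of the 42 in the brightest tertile of analysed genes. As deposited, 21 of these 24 carriers (87.5%) had a negative log2 ratio, their median being −0.31, against 54.7% and −0.060 for all 4212 genes in the tertile. With quantile normalisation 18 of the 24 were negative (75%, against 51.0% of all genes there), with loess 17 (70.8% against 49.7%) and with spike scaling 12 (50% against 32.8%). Of these 24, 1 was at least 2-fold higher (4.17%, against 5.60% of all genes there) and 2 were at least 2-fold lower (8.33%, against 7.34%), both near the background. Most differences were small, and the quartiles of the 42 log2 ratios were −0.74 and 0.089. Probe sets of the same gene also differed. An SD per probe set was taken from the difference between a gene's 2 brightest probe sets above the floor on both arrays. It was 0.44 in log2 ratio over 4380 genes and 0.34 over 17 carrier genes, and dimmer probe sets were left out. This SD covers differences between probe sets and not between animals.

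**Figure D1:**
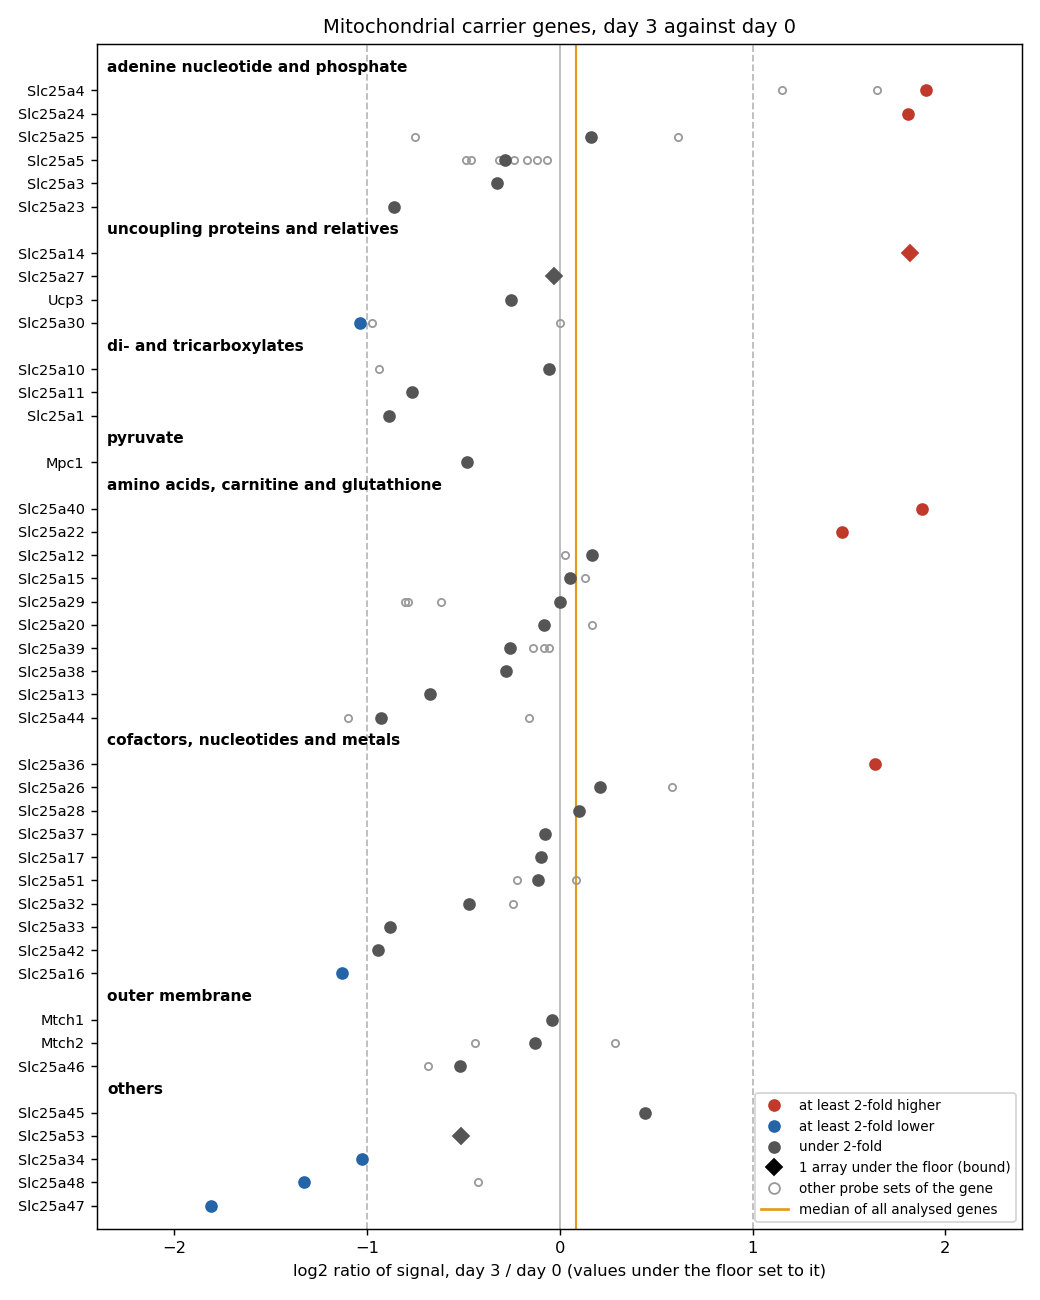
Log2 ratios of signal (day 3 over day 0, horizontal axis) for the 42 analysed carrier genes, grouped by role. Filled symbols are main probe sets, open circles the gene's other analysed probe sets, diamonds genes with 1 array under the floor. The 6 higher genes lie between 1.46 and 1.90, the 5 lower ones between −1.03 and −1.81, and the other 31 between −0.94 and 0.44.

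**Figure D2:**
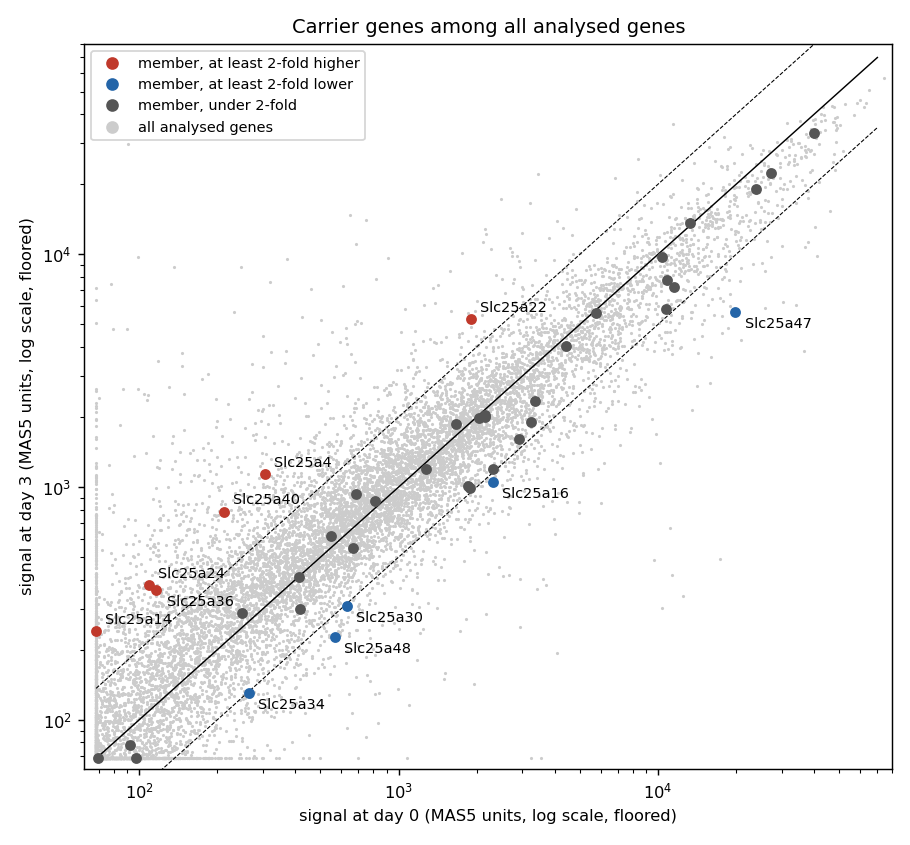
Signal at day 0 and day 3 on log axes for all 12634 analysed genes (grey) and the 42 carriers (red higher, blue lower, dark under 2-fold), with signals under the floor set to it. The solid line is equality and the dashed lines are 2-fold. Slc25a47 is the named point farthest to the right, and apart from Slc25a22 the higher genes had day 0 signals of at most 304.

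The ADP/ATP and phosphate carriers supply the matrix with the substrates of ATP synthesis and export the ATP made there. Slc25a4, the ADP/ATP carrier known as the form of heart and muscle, had signals of 304 at day 0 and 1134 at day 3 and was 3.73-fold higher. Its log2 ratio was 1.90. Its other probe sets above the floor went from 228 to 714 and from 389 to 864, with log2 ratios of 1.64 and 1.15, so all 3 were at least 2-fold higher. A remaining probe set lay under the floor on both arrays, at 2.19 and 30.2. The 3 above the floor carry the array's mark for probe sets shared between transcripts or genes. Skeletal muscle markers were at or near the floor: Ckm read 48.6 and 94.5, Acta1 90.6 and 10.4, and Myh4 and Mb lay under it on both arrays.

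Slc25a5, the ADP/ATP carrier known as the form of liver and dividing cells, differed little. Its main probe set read 27246 at day 0 and 22366 at day 3, a log2 ratio of −0.28 that turned to 0.015 under spike scaling and was also above 0 after loess. All 8 of its probe sets were lower at day 3 as deposited, with log2 ratios from −0.49 to −0.066, while 7 were negative with quantile normalisation, 6 with loess and 3 with spike scaling. Under these scalings the lowest log2 ratio of the 3 Slc25a4 probe sets was 0.96, with quantile normalisation. The highest of the 8 Slc25a5 probe sets was 0.23, with spike scaling. Probe sets of a gene on the same 2 arrays are not replicates. Most of those of Slc25a5, its main one included, also carry the mark for shared probe sets. Slc25a3, the phosphate carrier, read 23903 and 19035 (1.26-fold lower).

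**Figure D3:**
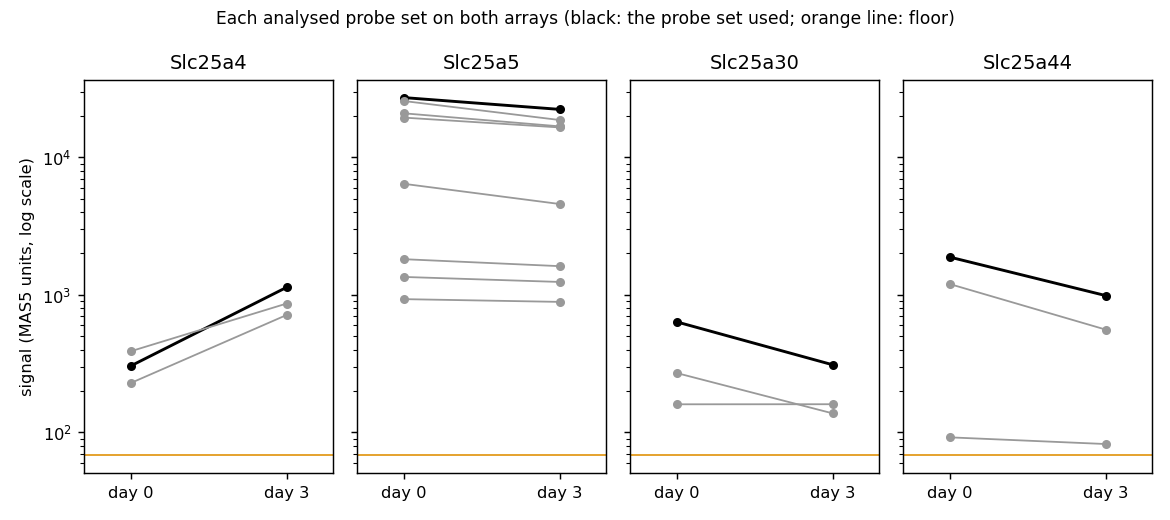
Signal on both arrays (log axis) of each analysed probe set of Slc25a4, Slc25a5, Slc25a30 and Slc25a44, with the main probe set in black and the floor in orange. The 3 lines of Slc25a4 climb and the 8 of Slc25a5 slope slightly down as deposited (1 turned with quantile normalisation, 2 with loess and 5 with spike scaling), while 1 of 3 lines of Slc25a30 is level.

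The calcium-regulated ATP-Mg/phosphate carriers change the size of the matrix nucleotide pool, and their members diverged. Slc25a24 had signals of 109 at day 0 and 380 at day 3 and was 3.49-fold higher. Its second probe set lay under the floor at 23.5 and 33.8. Slc25a23, the form known from liver, read 2913 and 1602 and was 1.82-fold lower. Slc25a25 read 1660 and 1860 on its main probe set (1.12-fold higher), while its other probe sets had log2 ratios of −0.75 and, with day 0 under the floor, at least 0.61. Within the 6 analysed genes of nucleotide and phosphate exchange, 2 passed 2-fold upward and none downward. Over all analysed genes the shares were 12.9% and 5.62%. The median of the 6 genes was −0.060, and above 0 with loess, quantile normalisation and spike scaling.

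Uncoupling proteins let protons back into the matrix, and several carriers are named after them by sequence. Slc25a14, also called UCP5, was under the floor at day 0 (55.6) and read 241 at day 3, so it was at least 3.53-fold higher, on its only probe set. Slc25a30, a relative described in kidney, read 635 and 310 on its main probe set and was 2.05-fold lower. Another of its probe sets read 269 and 137 (log2 ratio −0.97) and another 160 on both arrays, so its probe sets did not move alike. Its log2 ratio of −1.04 was −0.74 with spike scaling and −0.67 as the mean over its probe sets. Ucp3, the uncoupling protein of muscle, was near the floor with 92.6 and 77.7. Slc25a27, also called UCP4, read 69.6 at day 0, barely above the floor, and 11.1 at day 3. Its log2 ratio of −0.028 was therefore set by the floor, and became −1.82 when the 25th percentile was the floor and −1.66 without one.

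Carriers of di- and tricarboxylates pass malate, citrate and oxoglutarate between matrix and cytosol. Slc25a1, the citrate carrier that supplies acetyl units for lipid synthesis, read 10744 at day 0 and 5805 at day 3 and was 1.85-fold lower. Slc25a11, the oxoglutarate-malate carrier of the malate-aspartate shuttle, read 3230 and 1896 and was 1.70-fold lower. Slc25a10, the dicarboxylate carrier, read 5781 and 5565 on its main probe set, a log2 ratio of −0.055 that turned above 0 with loess, with spike scaling and with quantile normalisation, while its second probe set went from 1952 to 1019 (−0.94). None of these 3 genes passed 2-fold on its main probe set. Mpc1, the pyruvate carrier subunit, read 10788 and 7714 and was 1.40-fold lower.

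Among carriers of amino acids, carnitine and glutathione, 2 of 10 analysed genes passed 2-fold upward and none downward. Over all analysed genes the shares were 12.9% and 5.62%. The median of the 10 carriers, −0.041, turned above 0 with loess, quantile normalisation and spike scaling. Slc25a40, a relative of the glutathione carrier, read 213 at day 0 and 784 at day 3 and was 3.68-fold higher, on its only probe set. With the floor at the 75th percentile its log2 ratio was 0.89 in place of 1.88. Slc25a22, a glutamate carrier, read 1905 and 5256 and was 2.76-fold higher, also on 1 probe set. It was the one bright carrier gene, in the brightest tertile, that was at least 2-fold higher. Slc25a39, the glutathione carrier, had 4 analysed probe sets with log2 ratios from −0.26 to −0.059. Its main one read 39760 and 33232, and this ratio turned above 0 with loess, with spike scaling and with quantile normalisation.

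The carriers that serve the urea cycle differed from each other. Slc25a15, the ornithine carrier, read 13214 at day 0 and 13683 at day 3, within 1.04-fold, and its second probe set read 838 and 918. Slc25a13, citrin, the aspartate-glutamate carrier of liver, read 11505 and 7215 and was 1.59-fold lower. Slc25a12, aralar, the aspartate-glutamate carrier of muscle and brain, read 550 and 618, a log2 ratio of 0.17 that turned to −0.0069 after quantile normalisation. Slc25a20, the carnitine-acylcarnitine carrier of fatty acid oxidation, read 10322 and 9755. Its log2 ratio of −0.082 turned above 0 with loess, with spike scaling, with quantile normalisation and as the mean over its probe sets.

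Slc25a44, a carrier of branched-chain amino acids, read 1880 at day 0 and 988 at day 3 on its main probe set, 1.90-fold lower. A second probe set went from 1197 to 558 (log2 ratio −1.10) and another from 91.8 to 82.1. Slc25a29, a carrier of basic amino acids, was level on its main probe set at 412 and 411, whereas its other 3 analysed probe sets had log2 ratios from −0.80 to −0.62, 2 of them with day 3 under the floor. Slc25a38, a glycine carrier needed for heme synthesis, read 667 and 549 (1.21-fold lower, with a log2 ratio of 0.020 under spike scaling).

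Of the 10 analysed carriers of cofactors, nucleotides and metals, 1 was at least 2-fold higher and 1 at least 2-fold lower. Over all analysed genes the shares were 12.9% and 5.62%. The median of the 10 carriers was −0.11, and above 0 with spike scaling. Slc25a36, a pyrimidine nucleotide carrier, read 117 at day 0 and 362 at day 3 and was 3.10-fold higher. Its other 2 probe sets lay under the floor on both arrays. Slc25a33, the other pyrimidine nucleotide carrier, read 1853 and 1008 and was 1.84-fold lower. The genes of this pair therefore stood on opposite sides of the all-gene median.

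Slc25a16, a carrier linked to coenzyme A, read 2309 at day 0 and 1054 at day 3 and was 2.19-fold lower, on its only probe set (log2 ratio −1.13, and −0.83 with spike scaling). Slc25a42, a coenzyme A carrier, read 2308 and 1200 and was 1.92-fold lower. Slc25a32, the folate and FAD carrier, read 417 and 301 (1.39-fold lower). Slc25a51, the NAD carrier, had 3 probe sets with log2 ratios from −0.22 to 0.081. Slc25a26, the S-adenosylmethionine carrier, had log2 ratios of 0.21 and 0.58 on its probe sets, the first of which turned to −0.064 after quantile normalisation. Slc25a17, a peroxisomal carrier of the family, read 1279 and 1195.

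The mitoferrins import iron for heme and iron-sulfur clusters. Slc25a37, mitoferrin 1, known for its role in red cell precursors, read 2148 at day 0 and 2036 at day 3, a log2 ratio of −0.078 that was 0.22 under spike scaling. Slc25a28, mitoferrin 2, read 814 and 873, a log2 ratio of 0.10 that was −0.028 after quantile normalisation. Beside them Alas2, the heme synthesis enzyme of red cell precursors, was 3.21-fold lower, with signals of 8932 and 2783. The erythroid markers Hba-a1 and Epb42 lay under the floor on both arrays.

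In the outer membrane group no gene reached 2-fold. Slc25a46, a protein of mitochondrial shape and lipid exchange, read 3340 at day 0 and 2335 at day 3 (1.43-fold lower), and its second probe set was lower too (log2 ratio −0.68). Mtch2, which inserts proteins into the outer membrane, read 4430 and 4055 on the main one of 4 analysed probe sets, whose log2 ratios ran from −0.44 to 0.29, and Mtch1 read 2038 and 1982. Both main ratios were below 0 as deposited and above 0 under spike scaling.

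The last 5 analysed carriers are those not placed in any group above, a remainder and not a class of substrate. Of these, 3 were at least 2-fold lower (2 with spike scaling) and none was 2-fold higher. Over all analysed genes, 5.62% were at least 2-fold lower and 12.9% higher. Slc25a47, an orphan carrier found almost only in liver, read 19873 at day 0 and 5663 at day 3 and was 3.51-fold lower. Its log2 ratio of −1.81 was lower than that of all but 0.997% of analysed genes, and it was measured on 1 probe set that the array marks as shared. Slc25a48, linked to choline import, read 568 and 227 and was 2.51-fold lower, while its second analysed probe set went from 126 to 94.1 (log2 ratio −0.42). The log2 ratio of Slc25a48 was −1.33, and −0.88 as the mean over its probe sets. Slc25a34 read 266 and 131 and was 2.04-fold lower, a log2 ratio of −1.03 that was −0.73 with spike scaling. Slc25a53 read 97.5 at day 0 and was under the floor at day 3 (44.0), at least 1.43-fold lower (log2 ratio −0.51, and −1.15 when the 25th percentile was the floor). Slc25a45 read 684 and 929 and was 1.36-fold higher.

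Some family members lie next to each other in the RefSeq gene order of protein-coding genes. Slc25a29 and Slc25a47 are neighbours, with log2 ratios of −0.00046 and −1.81 on their main probe sets. Slc25a24, 3.49-fold higher, adjoins Slc25a54, which lay under the floor on both arrays, and Slc25a23 adjoins Slc25a41, which did so too.

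**Figure D4:**
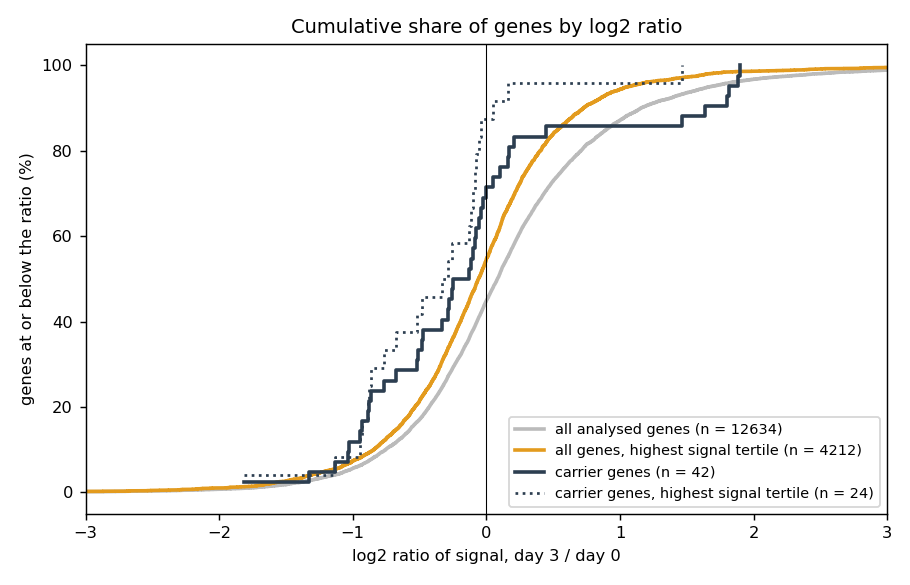
Cumulative share of genes (vertical axis, percent) at or below each log2 ratio, for all 12634 analysed genes, the 4212 of the highest signal tertile, the 42 carriers and the 24 carriers of that tertile. As deposited, the carriers' curve stands at 71.4% at a ratio of 0, against 44.9% for all genes. Its upper step is the 6 higher genes, and under spike scaling the carriers' median was 0.047.

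Genes that work with the carriers were read in 8 lists holding 87 genes, of which 79 were analysed. Of these, 4 (5.06%) were at least 2-fold higher and 8 (10.1%) at least 2-fold lower, with a median log2 ratio of −0.21. The shares were 12.9% and 5.62% of all analysed genes, but 5.60% and 7.34% of all genes in the brightest tertile. The partner lists were not split by signal. Counts past 2-fold also changed with the scaling in several lists, as given below. The 16 genes of carrier import and the outer membrane pores, the translocases that insert carriers and the channels that metabolites cross, were all under 2-fold, from −0.27 to 0.71 (median −0.045). With spike scaling all 16 were positive and 1 passed 2-fold. Timm22, the core of the carrier translocase, read 924 at day 0 and 1081 at day 3.

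In the malate-aspartate and citrate shuttles, 2 of 11 genes were at least 2-fold lower and none higher (median −0.51). Over all analysed genes 5.62% were lower and 12.9% higher by that much. Me1, the malic enzyme of the cytosol, was 3.81-fold lower (8464 and 2219) and Got1, the cytosolic aspartate aminotransferase, 2.57-fold lower (5980 and 2327). Of the carriers, Slc25a1, Slc25a11 and Slc25a13 had log2 ratios of −0.89, −0.77 and −0.67. Slc25a12 was at 0.17 and Slc25a10 at −0.055, and the signs of both changed with the scaling. Mdh2, the matrix malate dehydrogenase, had a positive log2 ratio of 0.65. The 7 analysed genes of matrix ATP synthesis were all lower by less than 2-fold (median −0.54), apart from 1 that turned positive with spike scaling, among them Atp5a1, an ATP synthase subunit, at −0.68, beside −0.28 for Slc25a5 and −0.33 for Slc25a3.

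Of 12 genes of pyruvate use (median −0.39), 2 passed 2-fold upward and 3 downward, against 12.9% and 5.62% of all analysed genes. Upward it was 3 with loess, quantile normalisation and spike scaling, where Ldha, a lactate dehydrogenase subunit chosen after its values were seen, went from a log2 ratio of 0.88 to between 1.15 and 1.18. Downward it was 2 with spike scaling. Pdk4, which inhibits the pyruvate dehydrogenase complex, had signals of 118 and 1216 and was 10.3-fold higher, and Pck2, the mitochondrial phosphoenolpyruvate carboxykinase, 8.01-fold higher (90.9 and 728). Pdk2 and Pdk1, kinases of the same kind, were 4.13-fold and 3.47-fold lower. Pcx, the matrix pyruvate carboxylase, read 9159 and 7193, beside a log2 ratio of −0.48 for Mpc1.

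Of 8 urea cycle and ornithine genes, 1 was at least 2-fold lower and none higher, against 5.62% and 12.9% of all analysed genes. The list median of −0.27 turned above 0 with loess, quantile normalisation and spike scaling. Asl, argininosuccinate lyase, was 3.06-fold lower (12110 and 3954). Otc, which uses the ornithine that Slc25a15 imports, was 1.94-fold lower (20556 and 10603). The 8 carnitine system genes were all under 2-fold as deposited, with a median of 0.011 that was −0.0027 with median centring and 0.31 with spike scaling. Crot, a carnitine acyltransferase of peroxisomes chosen after its values were seen, had a log2 ratio of 0.84 that passed 2-fold with loess (1.03) and spike scaling (1.14). Cpt2, which releases acyl groups from carnitine in the matrix, read 6733 and 6383, beside −0.082 for Slc25a20.

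Of 8 genes of mitochondrial iron and heme, 2 were at least 2-fold lower and none higher (median −0.51). Over all analysed genes 5.62% were lower and 12.9% higher by that much. The 2 lower genes were Alas2, given above, and Iscu, the scaffold of iron-sulfur clusters. Iscu read 12389 and 5342 and was 2.32-fold lower, with a log2 ratio of −0.91 under spike scaling. Fech, which inserts iron to form heme, read 7477 and 5063. Of 9 genes of mitochondrial folate and nucleotide metabolism (median 0.46), 2 passed 2-fold upward and none downward. Over all analysed genes the shares were 12.9% and 5.62%. Upward it was 1 gene of this list with quantile normalisation and with loess, and 3 with spike scaling. Mthfd1l, which releases formate from mitochondria, was 3.93-fold higher (163 and 638). Cmpk2, a mitochondrial nucleotide kinase, was 2.16-fold higher (119 and 258). The log2 ratio of Cmpk2 was 1.11, and 0.86 after quantile normalisation and 0.93 with loess. Shmt2, the matrix serine hydroxymethyltransferase, had a log2 ratio of −0.21 (0.092 with spike scaling).

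**Figure D5:**
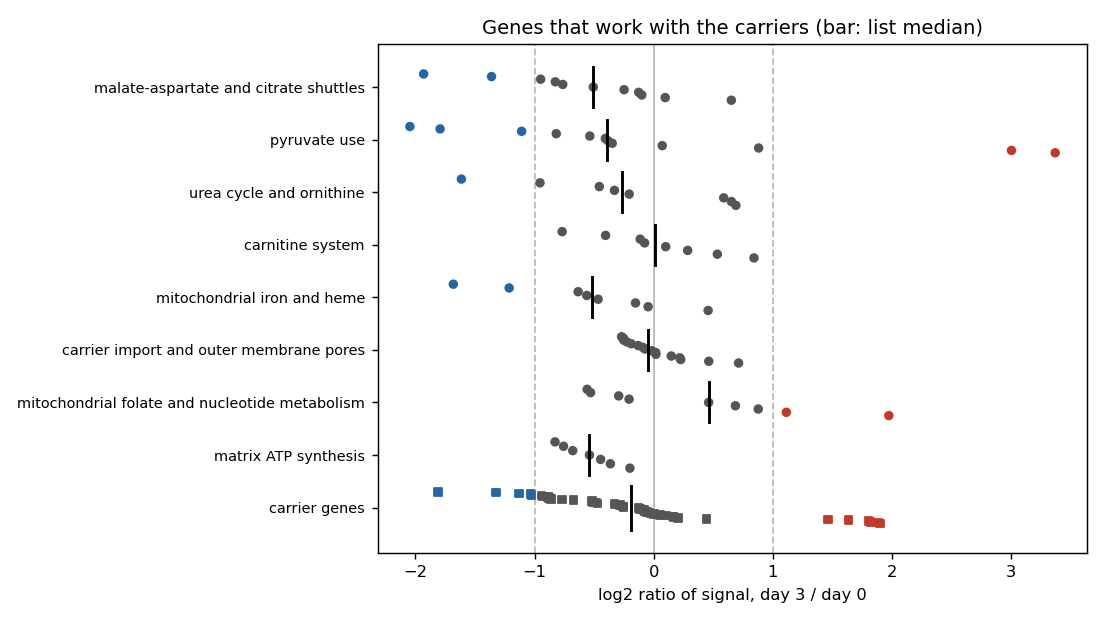
Log2 ratios (horizontal axis) of the genes in each partner list and of the 42 carriers (squares), with a bar at the list median; red and blue mark differences of at least 2-fold. As deposited, the median is −0.54 for matrix ATP synthesis (−0.31 with quantile normalisation) and 0.46 for mitochondrial folate and nucleotide metabolism (0.18 with it), and the import list has no gene past 2-fold (1 with spike scaling).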

How the data were processed

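Total RNA of whole liver was labelled with biotin and hybridised to an Affymetrix mouse expression array, 1 array for day 0 and 1 for day 3. The deposited values are probe set intensities on a linear scale, made with GCOS and MAS5 per the submitters' processing notes; no source used here gives versions or the scaling target. The mean signal was 500.0 on both arrays after trimming 2% at each end, per the deposited values. MAS5 subtracts mismatch signal, so ratios of low signals are noisy, and the number of arrays limits the precision. Detection calls and a genome build of the values were not used here.

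The array held 45101 probe sets, 64 of them controls. The supplied annotation gave 34945 probe sets 1 gene symbol and 932 several. Only the former were used, which left out 1 probe set shared by Slc25a37 and another gene. All 49 members matched the GRCm38.p6 gene table by Entrez ID, and 0 symbols changed. Signals were used as deposited, floored and converted to log2, and the threshold for calling a difference was 2-fold. No p-value was computed, since each day has 1 array. The rule for members uses gene names alone, but the family, role lists, partner lists and alternatives were chosen with earlier results of these data known. All members may be named; members past 2-fold and carriers with a known place in liver metabolism have full values. Of the partner lists, genes past 2-fold (up to 4 a list) and 1 other are named. The steps were tested on simulated data. Python 3.11.15, pandas 2.3.3 and statsmodels 0.14.6 were used.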

Additional observations from a re-analysis of the deposited data

How the results depend on the processing

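Each choice was changed alone, in 10 settings of scaling, floor and probe set and 2 thresholds. The count of members at least 2-fold higher (6) became 2 when the 75th percentile was the floor and 0 at a 4-fold threshold. The count at least 2-fold lower (5) became 2 under spike scaling, 2 when the 75th percentile was the floor (32 members left), 3 by the mean over probe sets, 7 when the 25th percentile was the floor (Slc25a27 and Slc25a53 joining), 12 at 1.5-fold and 0 at 4-fold. The median log2 ratio of −0.19 was 0.047 under spike scaling and from −0.27 to −0.098 in the other settings; the cause was not tested. Over all genes 2421 were higher (19.8%) and 373 lower (3.04%) under spike scaling, beside 14.6% and 4.88% of members. With the 25th percentile as the floor, 2412 (14.7%) and 1834 (11.2%) of 16433 genes were, beside 12.5% and 14.6% of members. For the 75th it was 574 (7.47%) and 406 (5.28%) of 7688, beside 6.25% and 6.25%. By the mean over probe sets it was 1422 (11.3%) and 655 (5.18%), beside 14.3% and 7.14%. At 1.5-fold 3028 of all genes were higher (24.0%) and 1797 lower (14.2%), and at 4-fold 413 (3.27%) and 96 (0.760%). No member past 2-fold changed sign in any of these settings. Slc25a16, Slc25a30 and Slc25a34 fell short of 2-fold under spike scaling, and Slc25a30 and Slc25a48 by the mean over probe sets. With the 75th percentile as the floor Slc25a30 was at −0.58, Slc25a40 at 0.89 and Slc25a48 at −0.42, and without a floor Slc25a30 was at −0.999 and Slc25a34 at −0.94. The scaling of the partner, marker and role lists was varied after seeing the data. Slc25a4, Slc25a36 and Slc25a47 have no value without probe sets marked as shared. No paired analysis was possible because each day has 1 array. Low signal limits Slc25a14, Slc25a24 and Slc25a36, whose day 0 signals were 55.6, 109 and 117 against the floor of 68.3.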
